A study of Mus musculus with 4 samples.

Results

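The genes of the MYC, MAX and MXD network were examined for changes in chromatin accessibility after loss of Ash2l, a core subunit of the KMT2 histone H3 lysine 4 methyltransferase complexes. The 10 genes Myc, Mycn, Max, Mxd1, Mxd3, Mxd4, Mxi1, Mnt, Mga and Mlx were chosen by name, and every accessible interval centred in such a gene or within 20 kb of it was taken as a member. This gave 59 of the 119609 intervals in the series. In addition, 9 of 709 transcription factor motifs in the footprint table carried the name of a network protein or of an MLX partner. The members were not chosen by their response to treatment, although earlier results of these data were known when the choice was made.

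ATAC-seq, in which a transposase cuts and tags open chromatin, was performed on iMEF2, an immortalized line of mouse embryo fibroblasts that carries an shRNA against p19Arf. According to the study's methods the line has floxed Ash2l alleles and a tamoxifen-inducible Cre recombinase. Both groups share these modifications. The +HOT group received 5 nM 4-hydroxytamoxifen for 7 days, which activates Cre and deletes exon 4 of Ash2l, and the -HOT group received the solvent ethanol over the same time. Each group has 2 libraries, which the methods call technical replicates, from a single line. A p-value here therefore reflects variation among libraries, and variation among separate cultures was not measured. Cells with intact Ash2l that received the drug were not analysed here, and effects of the drug or of Cre cannot be told apart from loss of Ash2l.

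MYC and MYCN are transcription factors of the basic helix-loop-helix leucine zipper type that bind DNA as heterodimers with MAX, mostly at the E-box CACGTG, and are known to promote cell growth and proliferation. The MXD proteins, MXI1 and MNT compete for MAX and recruit SIN3 corepressor complexes to the same E-boxes. MGA, which also holds a T-box DNA-binding domain, pairs with MAX in a variant Polycomb complex. MLX takes the place of MAX in a parallel branch of the network, with MLXIP and MLXIPL as glucose-responsive partners. In fibroblasts, Myc is known as an immediate early gene of the serum response.

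Because the network acts through CACGTG and several of its genes carry that element themselves, a selection of the E-boxes in their accessible intervals is shown with their surroundings. CACGTG was present in the main promoter site of 6 of the 10 genes, namely Max, Mxd3, Mxd4, Mnt, Mga and Mlx, but not in those of Myc, Mycn, Mxd1 and Mxi1. The main promoter site is the interval with the highest mean level within 3000 bp of a transcription start site of the gene. For comparison, 28.8% of the main promoter sites of all genes held the element. The windows of 30 bases below are from mm9 on the strand of the gene, with the E-box in capitals and its distance from the nearest start site of the gene given in bases. The windows of Mga and Mxd3 come from intervals that changed after Ash2l loss, and those of Max, Mxd4, Mnt and Mlx from promoter sites that were not called.
Mga, +962 (chr2:119723989-119724018, + strand, intron): cgccgaagccgaCACGTGgatcttgagaag
Mga, +1221 (chr2:119724248-119724277, + strand, intron): tccgcctggctgCACGTGatccttgggact
Mxd3, -254 (chr13:55431358-55431387, - strand, upstream): gcgtcccgcgcgCACGTGtagcccaggccg
Mxd3, -934 (chr13:55432038-55432067, - strand, upstream): gggcctgattggCACGTGactgtgttttcc
Mxd3, -9592 (chr13:55440696-55440725, - strand, intergenic): ttctgaagccatCACGTGgttaccctgcta
Max, -1 (chr12:78063221-78063250, - strand, at the start site): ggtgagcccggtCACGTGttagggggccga
Mxd4, -207 (chr5:34530561-34530590, - strand, upstream): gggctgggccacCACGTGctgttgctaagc
Mnt, -117 (chr11:74644291-74644320, + strand, upstream): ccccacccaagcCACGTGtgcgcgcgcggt
Mlx, -25 (chr11:100948552-100948581, + strand, upstream): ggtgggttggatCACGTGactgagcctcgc

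The libraries held 30411621 and 37151163 reads in intervals for -HOT and 21356440 and 28117900 for +HOT. Log2 levels correlated at 0.984 between the -HOT libraries, at 0.976 between the +HOT libraries and at 0.918 to 0.923 across groups, a description over all intervals. No interval overlapped exon 4 of Ash2l, so the deletion could not be checked in these counts. The promoter site of Ash2l, outside the deleted part, held 35.6 and 31.6 CPM (the normalised read count scaled to a common library total) in -HOT and 30.9 and 25.3 CPM in +HOT. All 12 fibroblast marker genes had an accessible promoter site, at 13.2 to 79.1 CPM in -HOT and 7.98 to 62.5 CPM in +HOT. The blood markers Ptprc, Spi1 and Cd3e had none. Summed over the 5 of 6 endothelial markers with a site, the level was 48.6 to 54.3 CPM in -HOT and 35.9 to 38.7 CPM in +HOT. Promoter sites of epithelial, blood and neural markers were likewise lower in +HOT in sum and those of muscle markers higher, and a part of other cells in the results was not tested.

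Changes are given as the log2 fold change of +HOT over -HOT. Intervals count as gained or lost where its size exceeds 0.40 with an adjusted p under 0.05. Of the 59 member intervals, 4 were lost and 3 were gained, and 52 were not called. Over all 119603 intervals tested, 14.2% were lost and 21.3% gained, against 6.78% lost and 5.08% gained among the members, a difference that was not tested. In such bulk libraries a change within each cell and a change in the share of cells cannot be told apart. Estimates lay below 0 for 41 of the 59 members (69.5%), with a median of -0.14, beside 50.0% and a median of 0.00 over all tested intervals. The members include 16 intervals at their own promoters and 11 at promoters of neighbours. Of all 20542 tested promoter intervals, 76.3% lay below 0, with a median of -0.21, and 23.5% were lost and 7.07% gained. The 22 member intervals in flanks had a median of -0.03. At a threshold on the adjusted p alone, 15 member intervals were lower and 4 higher. Of all 119603 tested intervals, 24002 were lower and 27338 higher by the same rule. Of the 20542 promoter intervals, 8242 were lower and 1619 higher.

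**Figure D1:**
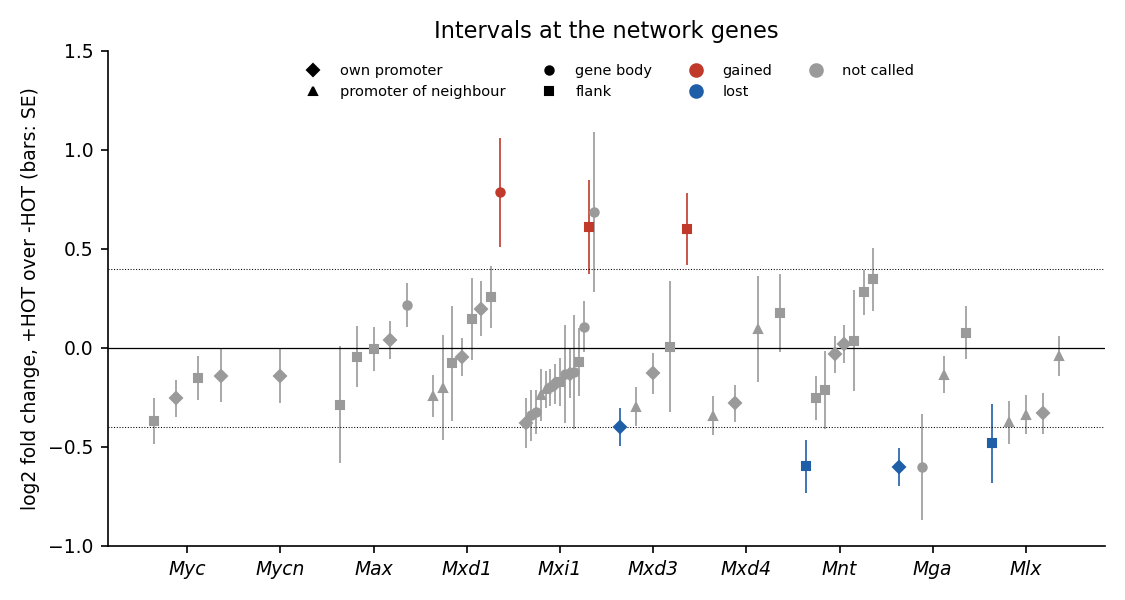
Log2 fold change (+HOT over -HOT, bars are the standard error from edgeR) of the 59 member intervals, grouped by gene and ordered by value, with the symbol giving the kind of interval, the colour the call and the dotted lines the threshold of 0.40. The 4 lost intervals lie at Mxd3, Mnt, Mga and Mlx and the 3 gained intervals at Mxd1, Mxd3 and Mxi1.

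At the promoters, those of the MAX partner Mga and of the repressor Mxd3 lost accessibility, and no member promoter gained. These 2 losses among 10 main promoter sites compare with 23.1% lost and 4.78% gained over the main promoter sites of 15758 genes. By edgeR 5 of the 10 were lower at an unadjusted p under 0.05 and 0 were higher, and DESeq2 called 2 lost and 0 gained. At an adjusted p under 0.05 alone, 5 of the 10 were lower, beside 8242 of all 20542 tested promoter intervals. Estimates were below 0 for 9 of the 10 members, beside 13074 of the 15758 genes. The median log2 fold change was -0.22 for the members as well as for all genes.

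**Figure D2:**
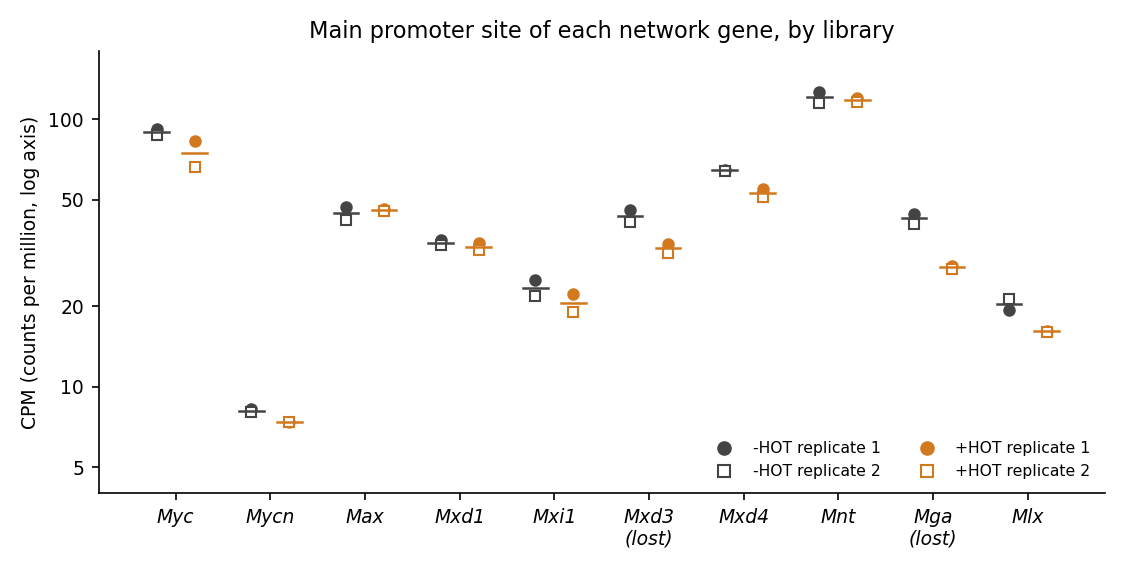
Level of the main promoter site of each network gene in CPM (log axis) in each library, with filled circles for replicate 1, open squares for replicate 2 and a line at the mean of each group. At Mga both +HOT libraries (27.6 and 28.3 CPM) lie below both -HOT libraries (40.7 and 44.4 CPM), whereas at Mnt and Max the groups overlap.

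Among the activators, Myc had a wide and strongly accessible promoter site (chr15:61814946-61818802) with 91.5 and 87.2 CPM in -HOT and 83.0 and 66.4 CPM in +HOT. Both +HOT values were below both -HOT values, but the replicates of +HOT differed from each other more than the higher of them did from -HOT. The log2 fold change was -0.26 (SE 0.095, adjusted p = 0.0215), which is short of the threshold of 0.40. Without +HOT replicate 1 it was -0.43 and would be called, and without +HOT replicate 2 it was -0.11. None of the 4 intervals at Myc was called by edgeR or DESeq2, with 2 of them lower at an unadjusted p under 0.05. The other of these lay 13.8 kb downstream of the gene start (chr15:61829975-61831444), with 13.1 and 15.0 CPM in -HOT and 11.6 and 9.98 CPM in +HOT (log2 fold change -0.37, adjusted p = 0.00663).

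Mycn, the paralogue known from the developing nervous system, had a single interval, its promoter site (chr12:12947776-12949809). It held 8.25 and 8.03 CPM in -HOT and 7.37 and 7.40 CPM in +HOT. The groups did not overlap, yet the log2 fold change of -0.14 (SE 0.136, adjusted p = 0.418) was within the error of the fit. Its level was at the 20th percentile of main promoter sites, against the 99.6th for Myc.

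Max, the shared dimerization partner, held 47.0 and 42.1 CPM in -HOT and 46.2 and 45.4 CPM in +HOT at its promoter site (chr12:78062013-78064085). The groups overlapped, with a log2 fold change of 0.04 (SE 0.094, adjusted p = 0.762), and the sign of this small value turned when TMM factors were taken from distal sites (-0.037) and without -HOT replicate 2 (-0.043). None of its 5 intervals was called by edgeR or DESeq2, and 0 had an unadjusted p under 0.05. An intronic interval 7.11 kb into Max (chr12:78055354-78056890) had 13.3 and 12.1 CPM in -HOT and 14.0 and 15.5 CPM in +HOT, all +HOT above -HOT, and did not pass the test (log2 fold change 0.22, SE 0.112, adjusted p = 0.110).

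Of the genes for MAX-bound repressors, Mxd3 was lower at its promoter site (chr13:55430603-55432076), which spans the start site and holds the E-boxes at -254 and -934 shown above. Its levels were 45.7 and 41.3 CPM in -HOT and 34.3 and 31.6 CPM in +HOT, without overlap. The log2 fold change was -0.40 (SE 0.096, adjusted p = 0.000317), barely past the threshold. It fell short of the threshold with library totals (-0.33), with offsets that follow abundance (-0.20) or GC content (-0.15), and without +HOT replicate 2 (-0.35) or -HOT replicate 1 (-0.33).

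Mxd4 and the alternative Mxi1 promoter were not called. At the Mxd4 promoter site (chr5:34528955-34531216) the levels were 64.6 and 63.9 CPM in -HOT and 54.6 and 51.2 CPM in +HOT, a separation with a log2 fold change of -0.28 (SE 0.093, adjusted p = 0.0106) that did not reach the threshold. The main promoter site of Mxi1, an antagonist of MYC, lies in an intron at a downstream start site (chr19:53403615-53405016) and held 25.0 and 21.8 CPM in -HOT and 22.2 and 19.0 CPM in +HOT. Here the groups overlapped (log2 fold change -0.18, adjusted p = 0.140), and with abundance or GC offsets the estimate was above 0 (0.020 and 0.097). The interval at the Mxi1 gene start (chr19:53384843-53385158) had 10.2 and 10.5 CPM in -HOT and 9.79 and 9.08 CPM in +HOT. Its log2 fold change was -0.13 (adjusted p = 0.406). Another, 1.23 kb into Mxi1 (chr19:53385773-53386677), had 12.2 and 10.2 CPM in -HOT and 8.53 and 8.71 CPM in +HOT. Its log2 fold change was -0.38 (adjusted p = 0.00950), just short of the threshold. At both, the groups did not overlap. The interval with the highest level at Mxi1 was not a promoter site by distance but lay 3.17 kb into the gene (chr19:53386979-53389353), at 61.9 and 55.9 CPM in -HOT and 51.2 and 51.3 CPM in +HOT (log2 fold change -0.20, adjusted p = 0.073).

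Mxd1 and Mnt showed no separation between the groups at their promoter sites. Mxd1, which rises in differentiating cells, had 35.3 and 33.8 CPM in -HOT and 34.4 and 32.3 CPM in +HOT (chr6:86618785-86619913, log2 fold change -0.05, SE 0.096, adjusted p = 0.708). Mnt, the broadly expressed repressor, had 126 and 115 CPM in -HOT and 119.8 and 116 CPM in +HOT (chr11:74643252-74646528, log2 fold change -0.03, SE 0.093, adjusted p = 0.797). The sign was not stable for either gene: with library totals, abundance offsets and GC offsets the values were 0.022, 0.16 and 0.26 for Mxd1 and 0.037, 0.13 and 0.16 for Mnt, and without -HOT replicate 1 Mnt was at 0.031. A further Mnt promoter site inside the gene (chr11:74651067-74652846) had 55.4 and 50.3 CPM in -HOT and 54.6 and 52.5 CPM in +HOT.

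Mga had the strongest promoter loss of the 10 genes. Its promoter site (chr2:119722498-119724408), which reaches into the intron with the E-boxes at +962 and +1221, fell from 44.4 and 40.7 CPM in -HOT to 28.3 and 27.6 CPM in +HOT, or from 42.5 ± 2.58 to 28.0 ± 0.493 CPM (SD, n = 2). The log2 fold change was -0.60 (SE 0.097, adjusted p = 1.20e-07). Leaving out each library in turn gave -0.67 to -0.54, all called, whereas with abundance offsets the value of -0.3998 did not exceed the threshold and the call was lost. An interval 11.4 kb into Mga (chr2:119733979-119734817) had the same estimate of -0.60, but at 2.11 and 2.71 CPM in -HOT and 1.23 and 1.99 CPM in +HOT it did not pass (adjusted p = 0.0592).

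For Mlx the promoter site (chr11:100948082-100949391) held 19.3 and 21.3 CPM in -HOT and 16.2 and 15.98 CPM in +HOT. The groups were apart, with a log2 fold change of -0.33 (SE 0.105, adjusted p = 0.00656), below the threshold in size. All 5 intervals at Mlx had estimates below 0, and they include those at the start sites of Naglu, Coasy and Psmc3ip. Of all tested promoter intervals, 76.3% lay below 0.

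Levels per kb of the main promoter site allow the genes to be set in order, although the extent of an interval depends on how peaks were joined. The place of a gene also depends on which site is taken. The short interval at the Mxi1 gene start, not its main site, held 32.8 CPM per kb in -HOT. In -HOT the order was Mnt (36.9 ± 2.42 CPM per kb), Mxd1 (30.6 ± 0.958), Mxd3 (29.5 ± 2.10), Mxd4 (28.4 ± 0.193), Myc (23.2 ± 0.799), Mga (22.3 ± 1.35), Max (21.5 ± 1.69), Mxi1 (16.7 ± 1.62), Mlx (15.5 ± 1.05) and Mycn (4.00 ± 0.0751), each SD with n = 2. Differences between neighbours were within their spread from Mxd1 to Mxd4, from Myc to Max, and between Mxi1 and Mlx. In +HOT Mnt (36 CPM per kb) and Mxd1 (29.6 CPM per kb) remained at the top and Mlx and Mycn at the bottom. Mga moved from place 6 to place 8 (14.6 CPM per kb), next to Mxi1 (14.7 CPM per kb), and Max from place 7 to place 5 (22.1 CPM per kb).

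Away from the promoters, 5 member intervals were called, and most were weak. An intronic interval of Mxd1 (chr6:86604402-86604656) was gained, with 1.56 and 1.14 CPM in -HOT and 2.46 and 2.21 CPM in +HOT (log2 fold change 0.78, SE 0.275, adjusted p = 0.0150). A gained interval 9.55 kb upstream of Mxd3 (chr13:55440191-55441155) holds the E-box at -9592 shown above, and had 3.44 and 3.51 CPM in -HOT and 4.81 and 5.78 CPM in +HOT (log2 fold change 0.60, SE 0.182, adjusted p = 0.00489). Thus Mxd3 had a lost promoter site and a gained distal site, both with CACGTG. A gained interval 18.3 kb upstream of Mxi1 (chr19:53366377-53367024) had 1.83 and 2.14 CPM in -HOT and 3.30 and 2.71 CPM in +HOT (log2 fold change 0.61, SE 0.237, adjusted p = 0.0293). None of these 3 gains passed with DESeq2, where the adjusted p was 0.119 for Mxd1, 0.0659 for Mxd3 and 0.174 for Mxi1. With abundance offsets the Mxd1 gain (adjusted p = 0.119) and the Mxi1 gain (adjusted p = 0.177) were uncalled, the latter also with TMM factors from distal sites (adjusted p = 0.0551). The Mxd1 gain was also uncalled without +HOT replicate 1 or -HOT replicate 2, the Mxd3 gain without +HOT replicate 2, and the Mxi1 gain without +HOT replicate 1, -HOT replicate 1 or -HOT replicate 2.

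The lost distal intervals lay in neighbouring genes. Upstream of Mnt by 8.03 kb, within a noncoding part of an exon of Mettl16, an interval (chr11:74635855-74636926) held 10.2 and 11.8 CPM in -HOT and 8.57 and 5.73 CPM in +HOT. Both +HOT libraries were lower, with a log2 fold change of -0.60 (SE 0.134, adjusted p = 0.000121) that was -0.94 without +HOT replicate 1 and -0.36, no longer called, without +HOT replicate 2. In an intron of Fam134c, 24.1 kb from the Mlx start, an interval (chr11:100972191-100973153) held 4.11 and 4.12 CPM in -HOT and 2.95 and 2.93 CPM in +HOT (log2 fold change -0.48, SE 0.201, adjusted p = 0.0426). Its call was lost with DESeq2 (adjusted p = 0.178), with library totals (adjusted p = 0.0932) and with any single library left out (adjusted p = 0.104 to 0.144).

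Both lost distal intervals contained TGANTCA, the element bound by AP-1 factors, in their central bases, and none of the 3 gained intervals did. The sequences are shown in mm9 on the strand of the network gene, with the element in capitals, together with the gained Mxi1 interval, whose window ends in a run of repeated taga tetranucleotides.
Mnt, lost (chr11:74636421-74636450, + strand): tctggaaagatctgctgTGACTCActcaaa
Mlx, lost (chr11:100972612-100972732, + strand): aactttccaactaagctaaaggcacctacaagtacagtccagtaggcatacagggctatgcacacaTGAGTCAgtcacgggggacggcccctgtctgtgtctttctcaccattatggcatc
Mxi1, gained (chr19:53366640-53366760, + strand): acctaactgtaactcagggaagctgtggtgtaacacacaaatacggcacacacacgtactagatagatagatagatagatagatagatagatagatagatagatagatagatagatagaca
Across the series, TGANTCA was found in the central bases of 12.5% of tested intervals beyond 3000 bp of a start site, in 17.1% of those lost and in 7.68% of those gained. Among the 32 member intervals in gene bodies and flanks it was in 5. Neither motif contains the other, and both read the same on the opposite strand apart from the open base.

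Intervals at the start sites of neighbouring genes made up 11 of the 59 members. They belonged to Snrnp27, Rab24, Poln, Zfyve28, Gm10197, Smndc1, Mapkbp1, Naglu, Coasy and Psmc3ip. None was called by edgeR or DESeq2, with 6 lower and 0 higher at an unadjusted p under 0.05, and estimates ran from -0.38 at Naglu to 0.09 at Zfyve28. Of all tested promoter intervals, 23.5% were lost and 7.07% gained. At an adjusted p under 0.05 alone, 4 of the 11 were lower, beside 8242 of all 20542 tested promoter intervals. The intervals nearest to the 20 kb limit on either side were not called. The outermost members, at 19486 bp from Mnt and 19692 bp from Max, and the nearest intervals beyond it, at 20044 bp from Mxd3 and 20166 bp from Mlx, had log2 fold changes of 0.04, -0.05, 0.09 and -0.03. Of the called intervals, those of Mlx and Mxi1 lay 19151 and 18296 bp outside their genes, and with a window of 10 kb 2 member intervals were gained and 3 lost.

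Next to Myc lies Pvt1 (chr15:61869542-62209651), a long noncoding RNA gene whose body is known to hold regulatory elements of the Myc domain, and its intervals are given as context. Unlike those at Myc, many Pvt1 intervals lost accessibility, with 18 of 46 lost and 2 gained. This is 39.1% lost and 4.35% gained, beside 15.5% lost and 19.5% gained among all intervals inside genes and beyond 3000 bp of a start site. It is a description without a test, and the 46 intervals include the Pvt1 promoter site. The lost intervals ranged from -0.42 to -1.80 on the log2 scale with a median of -0.74. Over all 46 Pvt1 intervals, called or not, both +HOT libraries were below both -HOT libraries at 31. The same held for 16817 of 48259 intervals inside genes and beyond 3000 bp of a start site.

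The lost Pvt1 interval with the highest level, 302 kb from the Myc start (chr15:62118025-62119518), had 50.0 and 51.2 CPM in -HOT and 38.3 and 33.9 CPM in +HOT (log2 fold change -0.48, adjusted p = 1.36e-05). Another lost interval at 349 kb (chr15:62165518-62166548) had 16.8 and 17.1 CPM in -HOT and 9.72 and 9.17 CPM in +HOT (log2 fold change -0.84, adjusted p = 8.91e-10). Other strong Pvt1 sites were not called. The site at 343 kb had 45.1 and 44.8 CPM in -HOT and 42.0 and 39.4 CPM in +HOT (log2 fold change -0.14). The site at 94.1 kb had 31.9 and 32.5 CPM in -HOT and 30.9 and 31.1 CPM in +HOT (log2 fold change -0.05). The steepest loss, at 283 kb (chr15:62099726-62100109), was at a weak site with 2.56 and 3.38 CPM in -HOT and 1.02 and 0.632 CPM in +HOT (log2 fold change -1.80, SE 0.292, adjusted p = 1.71e-07). The promoter site of Pvt1 itself (chr15:61869147-61871489), with 28.2 and 26.8 CPM in -HOT and 24.7 and 19.8 CPM in +HOT, was not called (log2 fold change -0.30, adjusted p = 0.0108), although it was at -0.47 and called without +HOT replicate 1. The count of lost intervals in the body was 16 to 18 when single libraries were left out.

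**Figure D3:**
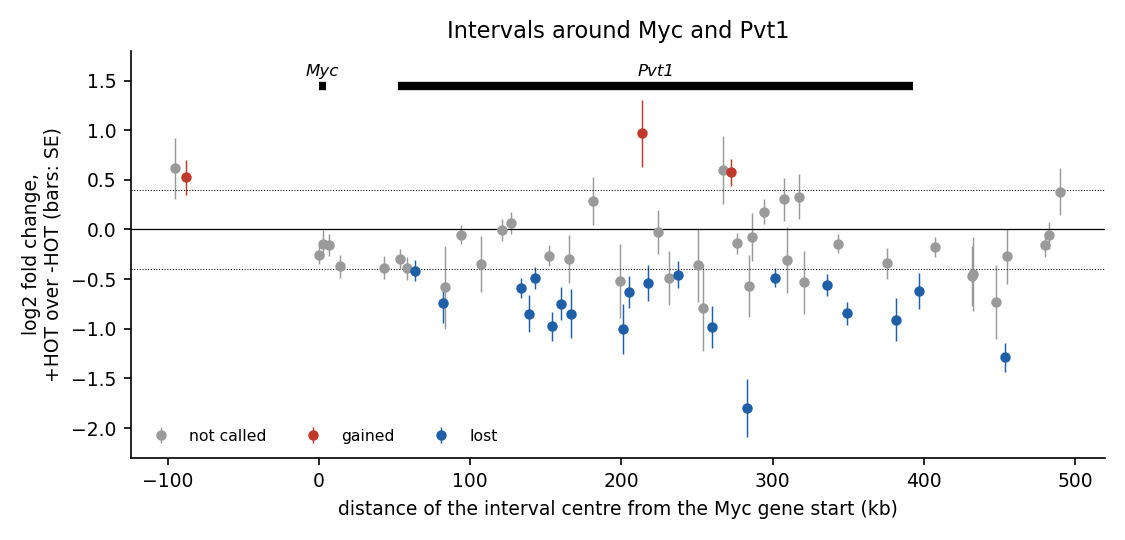
Log2 fold change (+HOT over -HOT, bars are the standard error from edgeR) of intervals from 100 kb before Myc to 100 kb after Pvt1, plotted by distance of the interval centre from the Myc start in kb, with black bars for the genes and dotted lines at the threshold of 0.40. The Myc intervals lie between -0.37 and -0.14, whereas 18 of the 46 Pvt1 intervals are lost, down to -1.80.

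The accessibility of genes that work with the network or are known as its targets was compared with that of all genes with a promoter site. Over 7 lists, promoter sites were found for 172 genes, with 31 lost and 0 gained (edgeR, 98 lower and 2 higher at an unadjusted p under 0.05, and 32 lost and 0 gained by DESeq2). Counts at an unadjusted p were not made for all genes, of which 13074 of 15758 had estimates below 0. At an adjusted p under 0.05 alone, 83 of the 172 list genes were lower, beside 8242 of all 20542 tested promoter intervals. The number lost ranged from 0 of 29 for MYC cofactors to 8 of 22 for cell cycle targets, with 23.1% of all genes lost as background. No list was tested against the background. The median over all genes was -0.22, and -0.05 with abundance offsets.

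Among related E-box factors, 2 of 10 promoter sites were lost and none gained (3 at an unadjusted p under 0.05, all lower, and DESeq2 called the same number), with a median of -0.07 that turned to 0.05 with GC offsets and 0.11 with abundance offsets. Lost were Mycl1, the third MYC paralogue, with 28.97 and 28.8 CPM in -HOT and 16.8 and 14.0 CPM in +HOT (log2 fold change -0.90, adjusted p = 1.19e-12), and Bhlhe41, a repressor of the circadian clock (-0.80). Its paralogue Bhlhe40 stayed within error at -0.01 (adjusted p = 0.917). Of the MYC cofactors and regulators, such as the kinase gene Pim1 with the highest level (-0.11, adjusted p = 0.329), 0 of 29 were called by edgeR or DESeq2, although 14 were lower and 0 higher at an unadjusted p under 0.05. Their median was -0.17, and 0.03 with abundance offsets.

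Of the genes for SIN3 and other corepressors, 2 of 19 (10.5%) were lost, L3mbtl2 (-0.62) and E2f6 (-0.46), beside 23.1% of all genes. Sin3a, the scaffold used by the MXD proteins, had 88.4 and 86.0 CPM in -HOT and 74.2 and 72.7 CPM in +HOT, with a log2 fold change of -0.25 short of the threshold. The list's median was -0.17, and 0.02 with abundance offsets.

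Of the known MYC target groups, ribosome biogenesis had 3 of 38 promoter sites lost, namely Wdr74 (-0.59), Tcof1 (-0.47) and Dkc1 (-0.41), with a median of -0.22. The highest site of that list, Rrp9, was at -0.12 and not called. In metabolism and growth, 12 of 40 genes, which have 38 separate sites, were lost (median -0.25), led by the transferrin receptor gene Tfrc, which had 22.9 and 19.5 CPM in -HOT and 8.18 and 9.03 CPM in +HOT (log2 fold change -1.31, adjusted p = 1.03e-18). The glutamine transporter gene Slc1a5 (-0.88) and the serine metabolism gene Shmt2 (-0.83) followed, whereas Gapdh, a glycolytic gene, was at -0.24 and not called. With abundance offsets the medians were -0.03 for ribosome biogenesis and -0.05 for metabolism and growth.

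The cell cycle list had 8 of 22 lost with a median of -0.31, and -0.12 with abundance offsets. Mcm6, which encodes a subunit of the replicative helicase, had 39.3 and 35.9 CPM in -HOT and 19.8 and 14.9 CPM in +HOT (log2 fold change -1.11, adjusted p = 2.79e-17). The cyclin-dependent kinase gene Cdk6 (-0.83) and the replication licensing gene Cdc6 (-0.64) were lost too, and E2f3, with the highest level among those not called, was at -0.27. Of genes repressed by MYC with MIZ1, 4 of 16 were lost as well, with Ndrg2 at -0.87, Itga6 at -0.86 and Cebpa at -0.73, while Ddit3 was at -0.19 and not called. Their median was -0.19, and 0.01 with abundance offsets. Lost promoters thus occurred in the lists of genes that MYC is known to activate and in that of genes it is known to repress. Over all genes 23.1% were lost, and no list was tested against this share.

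Footprints, the protection from cutting that a bound protein leaves at its motif, were scored by the authors on libraries merged within a condition, so the values have no replicate check and were not tested here. The sum of the differences (+HOT minus -HOT) in protection score and in tag count score was small for the network motifs. It was 0.0249 for MAX::MYC at 4396 sites, where the protection score was 0.379 in -HOT and 0.393 in +HOT and the tag count score 0.758 and 0.769. It was 0.0194 for MXI1 (4949 sites), 0.0136 for MYC (1300 sites), 0.00989 for Mlxip (2164 sites) and 0.00414 for MAX (3209 sites). MGA, at 4450 sites, was at -0.00906, and MYCN, at 3942 sites, at -0.0240.

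These 7 network motifs with at least 1000 sites all lay within -0.0986 to 0.0836, the 5th to 95th percentile of the 559 motifs of that size. MLXIPL (0.0954) and MLX (-0.0835) had larger differences in opposite directions, but only 162 and 543 sites. Motifs of other factors that bind E-boxes spread more widely. BHLHE40 had a protection score of 0.680 in -HOT and 0.880 in +HOT with a sum of 0.193, TFEB reached 0.0960 and TFE3 0.0740, BHLHE41 (378 sites) 0.0480 and USF1 0.0291. CLOCK (0.00773, 373 sites), Arntl (0.00604) and USF2 (-0.0179, 383 sites) were close to 0. Many of these motifs share CACGTG or much of it, so a site can count for several of them. MGA also has a T-box domain, and which of its domains the MGA motif stands for was not checked here. Its value is therefore not a measure of E-box sites.

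**Figure D4:**
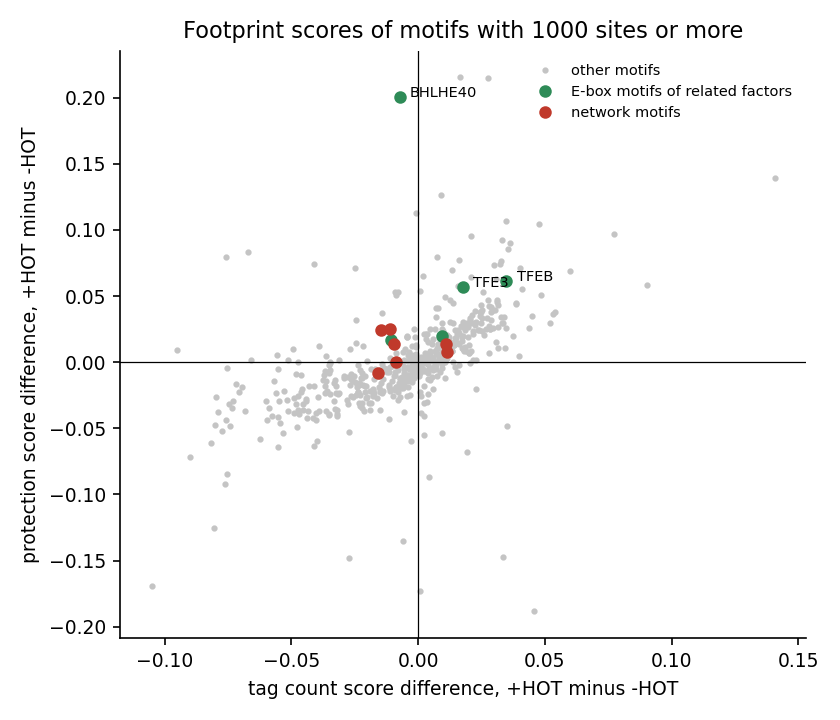
Difference in protection score against difference in tag count score (+HOT minus -HOT, no unit) for motifs with at least 1000 sites, with the 7 network motifs in red, 5 motifs of related E-box factors in green and all others in grey, each point from merged libraries. The network motifs cluster near 0, with sums of -0.0240 to 0.0249, whereas BHLHE40 stands apart at 0.193.

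Presence of CACGTG in an interval could also be set against the change in accessibility. Among the member promoter sites, the 6 with the element ranged from -0.60 to 0.04 with 2 lost, and the 4 without it ranged from -0.26 to -0.05 with 0 lost by edgeR or DESeq2. Over all tested promoter intervals, 24.7% of those with CACGTG were lost and 2.95% gained, against 23.1% and 8.35% of those without, with medians of -0.24 and -0.20. Intervals with the element were also longer (median 1709 against 1249 bp) and had higher levels (median 22.3 against 11.2 CPM). When only bases near the interval centre were read, 23.1% with the element and 23.5% without it were lost. In RefSeq promoter windows of 300 bases (GRCm38.p6), which were found for 9 of the 10 genes, Max, Mxd4, Mnt and Mlx held CACGTG, beside 7.15% of all windows.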

How the data were processed

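Members and gene lists were chosen with earlier results of these data known. The authors trimmed paired reads, aligned them with BWA to mm9, removed duplicates and blacklisted reads, and called peaks with MACS2; versions were not found in the labels or methods. Raw counts of reads per interval and library, as deposited by the authors, were used. The deposited scaled counts and the authors' DESeq2 fold changes, p-values and lists of called sites were not used. Removing duplicates limits the strongest sites, and closed chromatin outside peaks is unmeasured. The deposited footprint scores (protection and tag count scores per motif, RGT-HINT, JASPAR) come from merged libraries. In the methods, 1 of the -HOT libraries had fewer amplification cycles than the others.

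The 119603 intervals passing filterByExpr were tested with edgeR 4.0.16 (R 4.3.3) by its quasi-likelihood test with TMM factors of 0.969 to 1.04 and Benjamini-Hochberg adjustment over all of them, with calls where the log2 fold change was beyond 0.40 in size and the adjusted p was under 0.05. The fit was tested on simulated counts. Replicates of a group differed beyond sampling noise (chi-square per degree of freedom of 2.22 and 2.38), so each was kept. Interval starts were set to 1-based positions, and places were read from NCBIM37 and GENCODE vM1. Text names all members by main promoter site (highest mean CPM within 3000 bp of a start site), their called interval with the largest change in each direction and their highest interval, and of each list the 3 largest called changes and the uncalled site with the highest level; other intervals were chosen after their values were seen. Of 14 related factors, 4 were not found in the annotation used here. Alternatives were DESeq2 1.42.0, library totals, TMM factors from distal sites, offsets trended on abundance or GC content, no filter, no minimum fold change, other windows, a replicate block and leaving out each library.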

Additional observations from a re-analysis of the deposited data

How the results depend on the processing

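Against 3 gained member intervals, DESeq2 gave 0 and the gene bodies alone 1, and leaving out single libraries gave 1 to 2. Against 4 lost, library totals gave 2, TMM factors from distal sites 12, no minimum fold change 15 and the gene bodies alone 1, and leaving out single libraries gave 3 to 8, with 8 without +HOT replicate 1. Against 2 lost main promoter sites, library totals gave 1, abundance offsets 0, GC offsets 1 and no minimum fold change 5, with 1 to 3 over single libraries left out. Against 31 lost promoter sites over the gene lists, library totals gave 20, abundance offsets 15 and no minimum fold change 83, with 25 to 44 over single libraries left out. The cause was not tested. The sign turned, among values not called in the main test, for Max with distal TMM factors (-0.037) and without -HOT replicate 2 (-0.043, with 0.12 at the other end over single libraries left out), for Mxd1 with library totals (0.022), abundance offsets (0.16) and GC offsets (0.26), for Mxi1 with abundance (0.020) and GC offsets (0.097), and for Mnt with library totals (0.037), abundance (0.13) and GC offsets (0.16) and without -HOT replicate 1 (0.031, with -0.10 at the other end). The median footprint difference of the 7 larger network motifs, 0.00989, was -0.00944 for tag count alone. Replicate numbers did not pair the libraries (correlation of deviations 0.0409), and with a replicate block 3 member intervals were gained and 4 lost, as without it. Over all intervals gains made up 59.9% of calls, and 49.1% with distal TMM factors. The distal calls other than that at Mnt rest on low counts.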
